A study of Mus musculus with 4 samples.

Results

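Endothelial cells line blood and lymphatic vessels, and were examined here at the injured Achilles tendon of mice 7 days after burn/tenotomy (BT), a dorsal burn combined with transection of the tendon that leads to heterotopic ossification (HO). Members were chosen by a marker gate in 2 single-cell RNA sequencing (scRNA-seq) libraries. A barcode had to carry at least 200 genes and at most 20% mitochondrial transcripts, at least 5 unique molecular identifiers (UMIs, each counting 1 captured transcript) of Pecam1, Cdh5, Egfl7 and Cldn5 together, at most 1 UMI of the leukocyte gene Ptprc, under 1% of its UMIs from Col1a1 and Col1a2, and more UMIs of the endothelial genes than of the mural genes Rgs5, Myh11 and Abcc9. Of 2293 barcodes past the first 2 limits, 137 met the gate.

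Both libraries held unsorted cells of mice labelled Hoxa11CreER;ROSA-LSL-TdTomato;Hif1a fl/fl that had received tamoxifen (75 mg/kg daily for 5 days) before BT. Library 1-2 pools replicates 1 and 2, and library 3 holds replicate 3. The labels do not give the Cre status of either library and give a washout of 9 days after tamoxifen, against 1 week in the methods of the study. The Hoxa11 driver targets limb mesenchyme. No comparison by Cre status was possible, so no effect of Hif1a deletion was measured. Sections A1 and B1, assayed by Visium spatial transcriptomics, were of BT tendon from wild-type C57BL/6 mice aged 10 weeks, 7 days after injury, in which each spot can hold several cells of different types.

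An endothelial cell receives VEGF through the receptors Kdr, Flt1 and Flt4, is stabilised by angiopoietin signalling from mural cells through Tek, and takes part in arterial specification and sprout selection through Notch. Vessels of the microcirculation differ along their length: capillaries exchange gases and fatty acids, postcapillary venules display the selectins that slow passing leukocytes, and lymphatic vessels, under the control of Prox1, drain fluid and guide immune cells by Ccl21. Under low oxygen, the HIF-1α and HIF-2α proteins, encoded by Hif1a and Epas1, drive genes of vessel growth, glycolysis and collagen modification.

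Endothelial cells made up 91 of 1415 barcodes in library 1-2, a share of 6.43% (95% Wilson interval 5.27 to 7.83), and 46 of 878 in library 3, a share of 5.24% (3.95 to 6.92). Their median depth was 15458 UMIs per cell in library 1-2 and 12447.5 in library 3. They were set against 3 groups gated in the same libraries: 113 and 64 perivascular cells (pericytes and smooth muscle), 363 and 282 mesenchymal cells, and 418 and 206 leukocytes. Counts were summed per library and group. The 2 endothelial sums held 1566497 and 752287 UMIs, and levels are given as counts per 1000000 UMIs of the sum (CPM), library 1-2 first and library 3 second. Each test is edgeR's quasi-likelihood test on these sums with the library as a block and Benjamini-Hochberg adjustment over 12539 genes, with 0.05 as the threshold. Its p-values measure the spread between 2 libraries only. Differences are log2 fold changes ± SE, endothelial over the other group. Intervals quoted for single libraries cover counting error only.

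The gate fixes the 4 genes that define it, so their levels are a description. Pecam1, an adhesion molecule of the endothelial junction, stood at 1219 and 1247 CPM in endothelial cells, against 64.5 and 21.5 CPM in perivascular cells. Cdh5, the cadherin of endothelial junctions, stood at 960 and 1184 CPM in endothelial cells and at 51.8 and 21.5 CPM in perivascular cells. Both were lower still in mesenchymal cells and leukocytes. The median member carried 49 UMIs of the 4 genes in library 1-2 (range 5 to 268) and 47 in library 3 (range 5 to 293). Just inside the limit, 4 and 3 members carried 5 or 6 UMIs, with median depths of 15353.5 and 1210 UMIs, and just outside it 5 and 8 barcodes carried 3 or 4 UMIs, with median depths of 1312 and 1021.5 UMIs. None of the 4 in library 1-2 had a UMI of Plvap or Kdr, and 3 of them carried 26, 49 and 124 UMIs of Col1a1 and Col1a2 and were doubtful as members. A gate of 10 UMIs, which leaves all of these out, is among the alternatives.

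The label was checked with Plvap, which codes for the diaphragm protein of fenestrated endothelium and was not in the gate. Plvap stood at 1389 and 1418 CPM in endothelial cells, against 48.5 and 52.9 CPM in perivascular cells, 12.6 and 21.1 CPM in mesenchymal cells, and 0.644 and 0.356 CPM in leukocytes. The sums of the groups did not overlap, but not every member carried Plvap. Members without a Plvap UMI included a cell of library 1-2 with 65 UMIs of the gate genes and a cell of library 3 with 48. Plvap thus checks the label of the sums and not that of each cell. Transcripts of other cell types were present at low levels. Leukocyte markers summed to 16.6 and 22.6 CPM in endothelial cells, against 8297 and 9071 CPM in leukocytes. Pericyte and smooth muscle markers summed to 437 and 269 CPM in endothelial cells, against 22478 and 18121 CPM in perivascular cells, and 38.5% and 38.1% of these endothelial UMIs came from 1 cell of each library. Mesenchyme markers summed to 682 and 98.4 CPM in endothelial cells, against 67190 and 69884 CPM in mesenchymal cells, and in library 1-2 31.5% of these endothelial UMIs came from 1 cell and 5 cells carried 10 or more. Of 2626 red blood cell marker UMIs in the endothelial cells of library 1-2, 95.7% came from a single cell. Scrublet marked no member as a doublet, and no member barcode occurred in both libraries. The part of such transcripts in the differences below was not tested, and the perivascular sums in turn carried endothelial genes, as the values of Pecam1 and Cdh5 show.

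**Figure D1:**
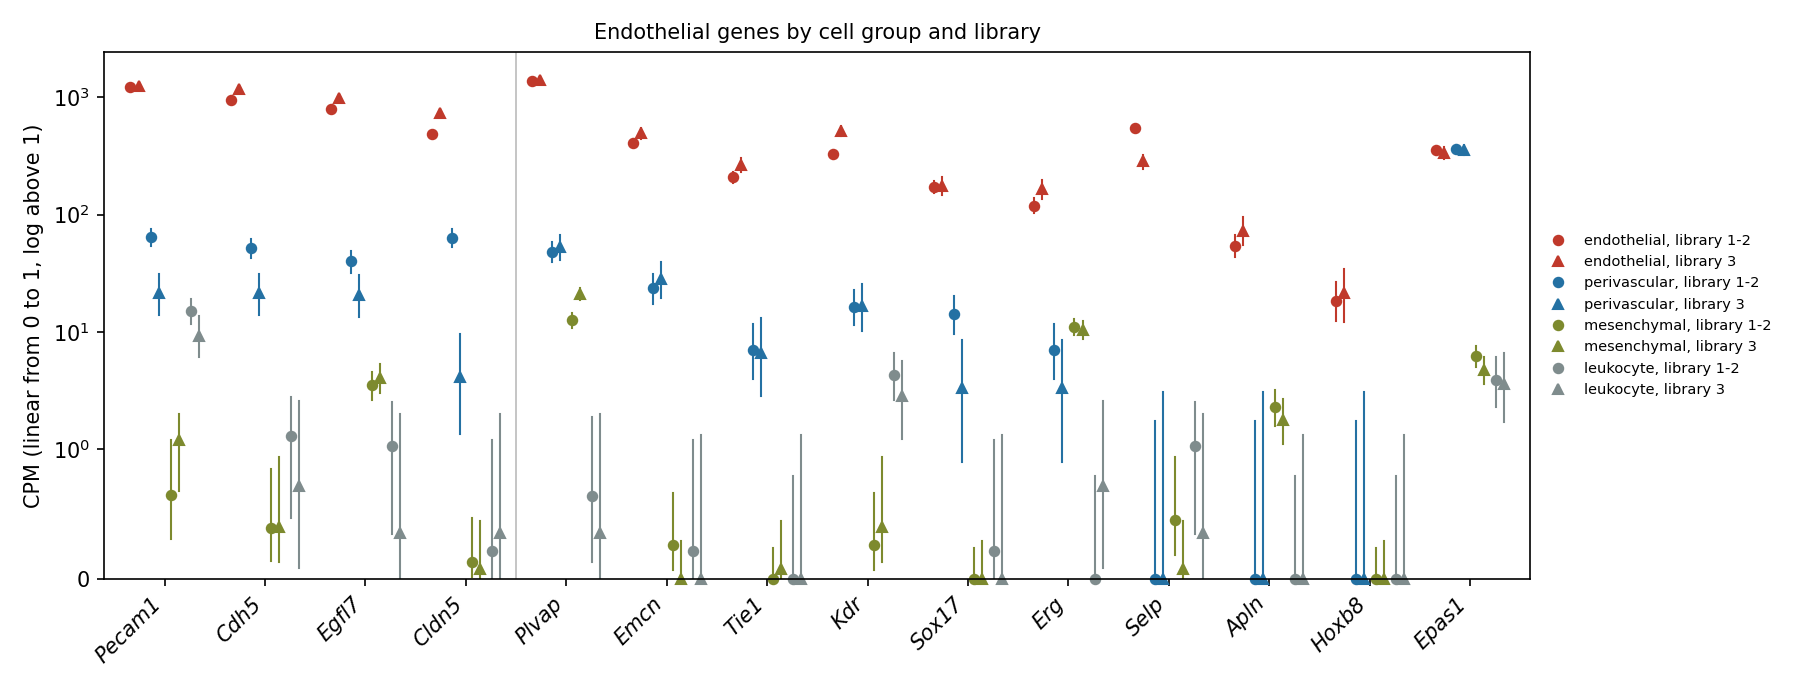
Levels of 14 genes in CPM (linear from 0 to 1, logarithmic above) in endothelial, perivascular, mesenchymal and leukocyte sums of library 1-2 (circles) and library 3 (triangles), with exact 95% Poisson intervals. The 4 gate genes stand left of the line, and Epas1, at the right end, has endothelial levels of 355 and 336 CPM beside perivascular levels of 367 and 354 CPM.

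Promoter sequence is shown for Emcn and Tie1, 2 surface genes whose levels set the endothelial cells apart from every other group (below), because ETS factors, among them the endothelial Erg and Fli1, bind sites with a GGAA core. The 250 bases before the start in RefSeq (GRCm38.p6) are printed 5′ to 3′ on the strand of the gene, with matches of AGGAAG on either strand in capitals. Emcn lies on the plus strand of chr3:137340828-137341077 with 2 matches, and Tie1 on the minus strand of chr4:118489850-118490099 with 1 match.
Emcn: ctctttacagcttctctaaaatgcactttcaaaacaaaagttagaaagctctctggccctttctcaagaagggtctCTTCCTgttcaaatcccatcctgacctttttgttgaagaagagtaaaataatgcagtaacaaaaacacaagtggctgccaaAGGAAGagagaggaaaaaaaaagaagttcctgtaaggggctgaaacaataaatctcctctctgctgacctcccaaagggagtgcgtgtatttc
Tie1: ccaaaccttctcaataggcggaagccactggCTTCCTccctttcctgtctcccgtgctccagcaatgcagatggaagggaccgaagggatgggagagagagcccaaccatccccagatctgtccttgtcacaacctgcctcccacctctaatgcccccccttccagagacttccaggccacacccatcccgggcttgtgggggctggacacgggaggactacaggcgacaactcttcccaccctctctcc
These letters occurred in 7 of the 12 pan-endothelial promoters that were matched by symbol (58.3%; the list has 24 genes), in 4 of 15 matched promoters of the endothelial transcription factors (26.7%) and in 29.2% of 27025 promoters of all genes. The longer CCGGAAG occurred in 0 of the 12 and in 7.05% of all. A match is a run of letters, not a site.

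Pan-endothelial genes were higher in endothelial cells than in perivascular cells in 23 of 24 cases, where 13.0% of all genes tested were higher and 14.4% lower. Against mesenchymal cells 24 of 24 were higher, where 17.9% of all genes were higher and 23.5% lower. Against leukocytes 24 of 24 were higher, where 20.6% of all genes were higher and 23.5% lower. The cells were chosen for endothelial transcripts, so this list describes the gate rather than tests it. Its medians were 4.12, 6.93 and 8.88 against the 3 groups, beside -0.01, -0.10 and -0.02 for all genes, and with genes of 0 counts set at their lower bound the last was 8.34. Emcn, the surface sialomucin endomucin, stood at 409 and 493 CPM in endothelial cells, against 23.5 and 28.1 CPM in perivascular cells (4.08 ± 0.26, adjusted p = 3.3e-05). Tie1, an orphan receptor of the angiopoietin pathway, stood at 209 and 267 CPM in endothelial cells, against 7.06 and 6.61 CPM in perivascular cells (5.02 ± 0.24, adjusted p = 2.6e-05). In both genes the lowest endothelial library lay far above every library of the other groups. Vwf, the clotting factor stored in endothelial granules, stood at 309 and 346 CPM in endothelial cells, against 2.82 and 4.13 CPM in perivascular cells. The exception was Mcam, a junctional adhesion molecule shared with pericytes, at 222 and 230 CPM in endothelial cells and 367 and 383 CPM in perivascular cells (-0.78 ± 0.16, adjusted p = 0.0078).

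Among 24 measured endothelial transcription factors, 14 were higher in endothelial cells than in all 3 other groups, where 5.77% of all genes were higher in all 3 and 2.89% lower. Their medians were 2.36, 3.33 and 2.74 against perivascular cells, mesenchymal cells and leukocytes. The SoxF factors, which act in vascular and lymphatic development, were all among them. Sox17 stood at 172 and 177 CPM in endothelial cells, against 14.1 and 3.31 CPM in perivascular cells and no UMI in mesenchymal cells. Sox18 stood at 266 and 233 CPM in endothelial cells, against 9.41 and 0.826 CPM in perivascular cells. Sox7 stood at 228 and 209 CPM in endothelial cells, against 7.06 and 2.48 CPM in perivascular cells. The ETS factor Erg stood at 119 and 165 CPM in endothelial cells, with 11.1 and 10.4 CPM in mesenchymal cells, the highest of the other groups. Its relative Fli1 was less restricted, since it stood at 253 and 235 CPM in endothelial cells and at 97.2 and 85.2 CPM in leukocytes (1.17 ± 0.16, adjusted p = 0.00044).

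VEGF receptors were high in endothelial cells and the main ligand was low. Kdr, the chief signalling receptor for VEGF-A, stood at 328 and 520 CPM in endothelial cells, against 16.5 and 16.5 CPM in perivascular cells (4.57 ± 0.23, adjusted p = 1.7e-05). Flt1, the decoy-like receptor, was shared more widely, at 528 and 627 CPM in endothelial cells and 185 and 201 CPM in perivascular cells (1.53 ± 0.15, adjusted p = 0.00019). Flt4, the receptor of the lymphatic growth factor VEGF-C, stood at 63.8 and 104 CPM in endothelial cells and at most 1.41 CPM elsewhere. In library 3, 60.3% of the Flt4 UMIs came from 1 cell, and without it the level was 43.5 CPM. Nrp2, a co-receptor of VEGF-C, stood at 284 and 360 CPM in endothelial cells, against 70.1 and 71.9 CPM in perivascular cells (2.11 ± 0.15, adjusted p = 4.8e-05), and was higher against each group. All 4 receptors were higher in both endothelial libraries than in perivascular cells, but named genes were chosen for a direction shared by both libraries. Vegfa itself stood at 31.3 and 21.3 CPM in endothelial cells, against 68.2 and 42.1 CPM in perivascular cells, 90.9 and 59.7 CPM in mesenchymal cells, and 140 and 132 CPM in leukocytes. The endothelial level of Vegfa was below both libraries of every other group, and the difference passed the test in all 3 comparisons (-1.10 ± 0.23, -1.77 ± 0.21 and -2.62 ± 0.21, adjusted p = 0.0081, 0.00023 and 2.2e-05). Over the 10 VEGF pathway genes, 5 were higher and 1 lower than in perivascular cells (median 1.01). Over all genes, 13.0% were higher and 14.4% lower (median -0.01).

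The angiopoietin genes divided by partner. The receptor Tek stood at 134 and 142 CPM in endothelial cells, against 7.06 and 1.65 CPM in perivascular cells (4.75 ± 0.34, adjusted p = 8.9e-05). Ptprb, the vascular phosphatase that acts on Tek, stood at 562 and 542 CPM in endothelial cells, against 40.9 and 27.3 CPM in perivascular cells (3.94 ± 0.22, adjusted p = 3.8e-05). Angpt1, the stabilising ligand, had no UMI in endothelial cells of either library, against 37.6 and 25.6 CPM in perivascular cells and 18.9 and 15.8 CPM in mesenchymal cells. With a floor of 3 counts over both endothelial sums, Angpt1 was at least 25.7-fold lower than in perivascular cells and at least 13.5-fold lower than in mesenchymal cells. Angpt2, the context-dependent antagonist, stood at 83.6 and 34.6 CPM in endothelial cells and at 72.9 and 74.4 CPM in perivascular cells, and the difference did not pass the test (-0.29 ± 0.33, adjusted p = 0.57). Its endothelial libraries lay on either side of the perivascular ones.

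Notch ligands and receptors split between the endothelial and mural compartments. Notch1 stood at 211 and 251 CPM in endothelial cells, against 64.9 and 56.2 CPM in perivascular cells (1.86 ± 0.16, adjusted p = 8.8e-05). Notch4, the receptor best known from endothelium, stood at 38.3 and 39.9 CPM in endothelial cells, against 5.18 and 4.13 CPM in perivascular cells (3.00 ± 0.38, adjusted p = 0.00067). The ligand Dll4, expressed by tip and arterial cells, stood at 63.8 and 67.8 CPM in endothelial cells, against 6.12 and 2.48 CPM in perivascular cells (3.80 ± 0.46, adjusted p = 0.00052). In the opposite direction, the mural receptor Notch3 stood at 12.8 and 3.99 CPM in endothelial cells, against 518 and 471 CPM in perivascular cells (-5.77 ± 0.27, adjusted p = 1.7e-05). Its target Heyl stood at 3.19 and 0 CPM in endothelial cells, against 57.9 and 62.8 CPM in perivascular cells (-4.81 ± 0.56, adjusted p = 0.00041). Of 14 Notch genes, 5 were higher and 6 lower than in perivascular cells (median -0.22), beside 13.0% and 14.4% of all genes. Against mesenchymal cells 9 were higher and 2 lower (median 1.98), beside 17.9% and 23.5% of all genes.

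Of 26 BMP and TGF-β genes measured, 9 were higher and 7 lower than in perivascular cells, beside 13.0% and 14.4% of all genes. Against mesenchymal cells 10 were higher and 8 lower, beside 17.9% and 23.5% of all genes. The medians were 0.08 and 0.41. Eng, the endothelial co-receptor endoglin, stood at 660 and 594 CPM in endothelial cells, against 83.8 and 60.3 CPM in perivascular cells and 22.3 and 21.1 CPM in mesenchymal cells (3.07 ± 0.15, adjusted p = 1.7e-05, and 4.57 ± 0.15, adjusted p = 6.2e-07). Id1, a direct target of BMP signalling, stood at 421 and 480 CPM in endothelial cells, against 176 and 52.9 CPM in perivascular cells (2.12 ± 0.39, adjusted p = 0.0044). Bmp4, a ligand with osteogenic activity, stood at 19.2 and 21.3 CPM in endothelial cells, against 0.471 and 0.826 CPM in perivascular cells and 4.23 and 6.03 CPM in mesenchymal cells. All of these were higher in both endothelial libraries than in any library of the group compared. Named genes were chosen for a shared direction, so this is a description. The type I receptor Bmpr1a was lower in endothelial cells, at 7.02 and 0 CPM in endothelial cells, against 93.6 and 85.1 CPM in perivascular cells and 76.9 and 74.0 CPM in mesenchymal cells. The ligand Tgfb3 stood at 5.75 and 3.99 CPM in endothelial cells, against 86.0 and 102 CPM in mesenchymal cells (-4.42 ± 0.24, adjusted p = 3.7e-06).

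The study turns on HIF-1α and the collagen lysyl hydroxylase Plod2, so these genes were compared next. Hif1a stood at 282 and 330 CPM in endothelial cells, against 272 and 216 CPM in perivascular cells, 473 and 377 CPM in mesenchymal cells, and 211 and 249 CPM in leukocytes. The count of 3′ tags does not report whether the floxed part of the gene was deleted. Hif1a was lower than in mesenchymal cells (-0.76 ± 0.18, adjusted p = 0.009) and did not pass the test against perivascular cells (0.27 ± 0.18, adjusted p = 0.32) or leukocytes (0.15 ± 0.18, adjusted p = 0.53). Epas1 was shared by the cells of the vessel wall. It stood at 355 and 336 CPM in endothelial cells and 367 and 354 CPM in perivascular cells (-0.11 ± 0.13, adjusted p = 0.59), against 6.25 and 4.74 CPM in mesenchymal cells and 3.86 and 3.56 CPM in leukocytes (5.69 ± 0.16, adjusted p = 4.9e-07, and 6.28 ± 0.19, adjusted p = 4.8e-07).

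Of the collagen-modifying genes, Plod2, Lox, Loxl1, Loxl2 and Loxl3 were low in endothelial cells. Not all such genes were as scarce. Endothelial UMIs were 106 and 77 for Plod1, 49 and 27 for P4ha1 and 13 and 9 for P4ha2, beside 25 and 7 for Plod2. Plod2 stood at 16.0 and 9.31 CPM in endothelial cells, against 44.2 and 41.3 CPM in perivascular cells and 479 and 375 CPM in mesenchymal cells (-1.73 ± 0.25, adjusted p = 0.0012, and -5.28 ± 0.21, adjusted p = 1.1e-06). Lox, which cross-links collagen, stood at 10.9 and 5.32 CPM in endothelial cells, against 95.5 and 71.9 CPM in perivascular cells and 944 and 790 CPM in mesenchymal cells (-3.31 ± 0.26, adjusted p = 6.5e-05, and -6.92 ± 0.25, adjusted p = 7.4e-07). Both genes were above the leukocyte level, where Plod2 had 2.57 and 3.21 CPM and Lox 2.36 and 3.21 CPM. With the gate raised to 10 UMIs, the difference of Lox from leukocytes no longer passed (0.94, adjusted p = 0.117). Loxl1, Loxl2 and Loxl3, the related oxidases, were lower than in perivascular and mesenchymal cells as well, and Loxl2 stood highest of them in endothelial cells at 23.6 and 6.65 CPM.

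Over a list of 34 genes of the HIF pathway and its targets the direction was mixed. Of 30 measured, 4 were higher and 9 lower than in perivascular cells (median -0.09), where 13.0% of all genes were higher and 14.4% lower (median -0.01). Against mesenchymal cells 10 were higher and 14 lower (median -0.56), where 17.9% of all genes were higher and 23.5% lower (median -0.10). Against leukocytes 13 were higher and 6 lower (median 0.22), where 20.6% of all genes were higher and 23.5% lower (median -0.02). Edn1, the vasoconstrictor endothelin-1, was higher against each group, at 110 and 253 CPM in endothelial cells and at most 4.99 CPM in any other library. In library 3, 56.3% of the Edn1 UMIs came from 1 cell, and without it the level was 116 CPM. Ndrg1, a stress-responsive gene, was also higher against each, at 426 and 334 CPM in endothelial cells, against 46.6 and 28.9 CPM in perivascular cells and 167 and 180 CPM in mesenchymal cells.

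**Figure D2:**
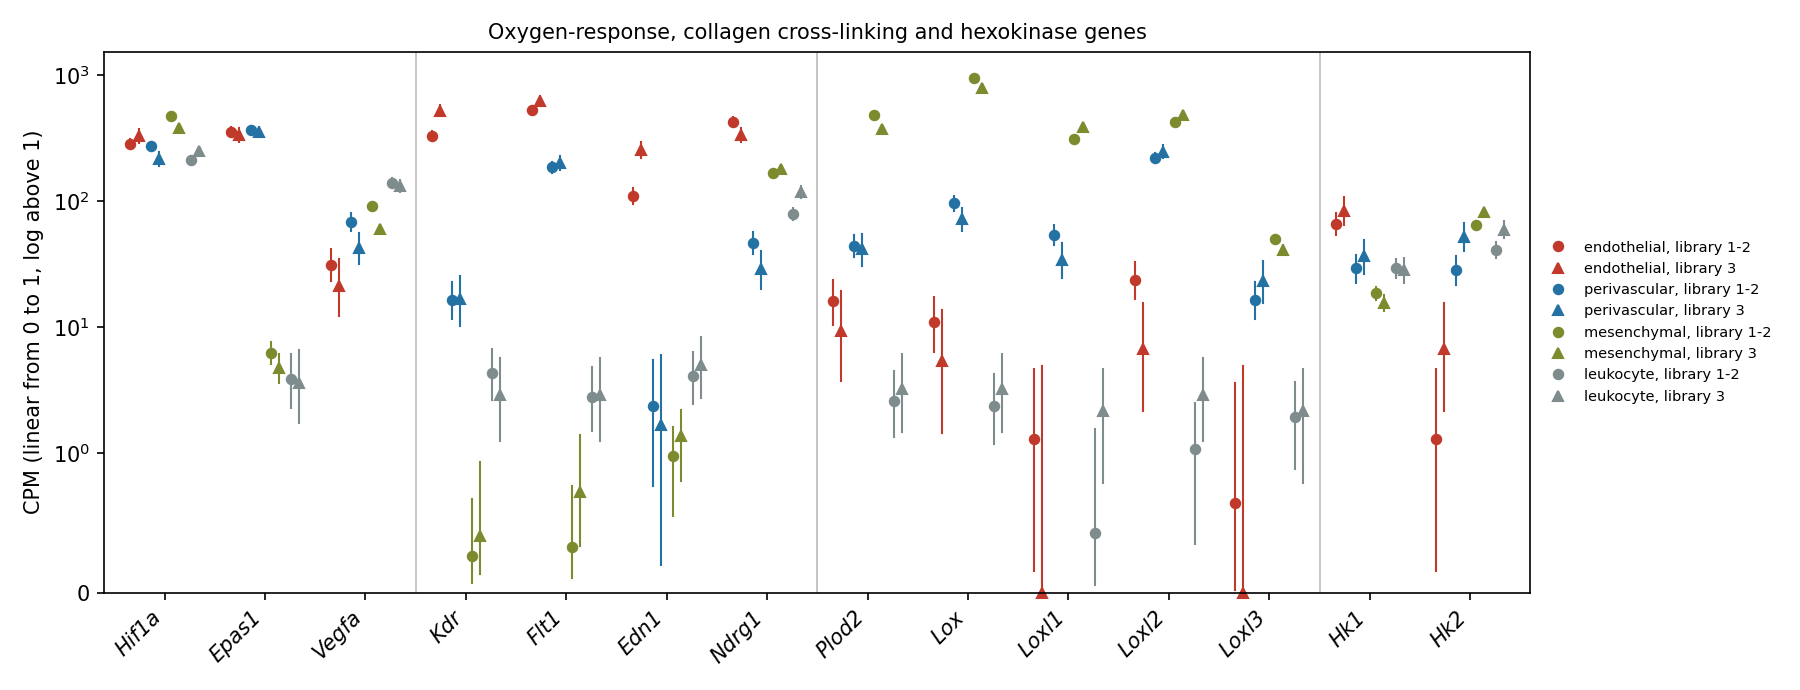
Levels of HIF genes, VEGF pathway genes, collagen cross-linking genes and hexokinases in CPM (linear from 0 to 1, logarithmic above) by cell group, with circles for library 1-2, triangles for library 3 and exact 95% Poisson intervals. Plod2 had 16.0 and 9.31 CPM in endothelial cells, and 479 and 375 CPM in mesenchymal cells.

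Of 21 glycolysis genes measured, 2 were higher and 8 lower than in perivascular cells, beside 13.0% and 14.4% of all genes, 4 were higher and 9 lower than in mesenchymal cells, beside 17.9% and 23.5%, and 2 were higher and 11 lower than in leukocytes, beside 20.6% and 23.5%. The medians were -0.18, -0.45 and -0.53, beside -0.01, -0.10 and -0.02 for all genes. The hexokinases, which catalyse the first step, moved in opposite directions. Hk1 stood at 65.8 and 83.7 CPM in endothelial cells, against 29.2 and 36.4 CPM in perivascular cells (1.14 ± 0.21, adjusted p = 0.0049). Hk2, the inducible form, stood at 1.28 and 6.65 CPM in endothelial cells, against 28.2 and 52.1 CPM in perivascular cells and 65.0 and 81.5 CPM in mesenchymal cells (-3.62 ± 0.42, adjusted p = 0.00041, and -4.78 ± 0.36, adjusted p = 1.9e-05). The glucose transporter Slc2a3 and the lactate transporter Slc16a3 were lower than in all 3 groups, at no more than 4.47 CPM in either endothelial library. The call of Slc2a3 against mesenchymal cells (-1.77 ± 0.60, adjusted p = 0.043) was lost under 4 alternatives, given in the closing section.

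Genes that take up and carry fatty acids differed in both directions. Of 16 measured, 6 were higher and 1 lower than in perivascular cells (median 0.33), beside 13.0% and 14.4% of all genes. Against mesenchymal cells 7 were higher and 4 lower (median 0.45), beside 17.9% and 23.5%, so the share lower was near that of all genes. Against leukocytes 7 were higher and 5 lower (median -0.27), beside 20.6% and 23.5%. Fabp4, a fatty acid binding protein of capillaries and fat cells, stood at 7230 and 7326 CPM in endothelial cells, against 2219 and 2174 CPM in perivascular cells, 6.12 and 6.75 CPM in mesenchymal cells, and 10.9 and 8.91 CPM in leukocytes. It was higher against each group, by 1.68 ± 0.13 against perivascular cells (adjusted p = 6.9e-05). Gpihbp1, which anchors lipoprotein lipase on the capillary wall, stood at 420 and 653 CPM in endothelial cells and at 28.7 and 31.4 CPM in perivascular cells, with no UMI in mesenchymal cells or leukocytes. Against these last 2 groups Gpihbp1 was at least 4594-fold and at least 1233-fold higher, with a floor of 3 counts over each group. Lpl, the lipase itself, ran the other way, at 51.1 and 33.2 CPM in endothelial cells, against 449 and 378 CPM in perivascular cells (-3.26 ± 0.39, adjusted p = 0.00048).

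Of 18 basement membrane genes measured, 3 were higher and 3 lower than in perivascular cells, a share close to the 13.0% and 14.4% of all genes. Against mesenchymal cells 8 were higher and 1 lower, beside 17.9% and 23.5%. Against leukocytes 18 of 18 were higher, beside 20.6% of all genes. The medians were -0.11, 0.42 and 6.05. Col4a1, a chain of the main basement membrane collagen, stood at 2478 and 2746 CPM in endothelial cells and 2789 and 3496 CPM in perivascular cells (-0.30 ± 0.36, adjusted p = 0.6), against 127 and 140 CPM in mesenchymal cells (4.01 ± 0.41, adjusted p = 0.0001). Its partner Col4a2 followed, at 1221 and 1349 CPM in endothelial cells and 1379 and 1501 CPM in perivascular cells. The collagens that border the membrane differed in both directions. Col15a1 stood at 557 and 476 CPM in endothelial cells, against 162 and 169 CPM in perivascular cells (1.60 ± 0.15, adjusted p = 0.00013), while Col18a1, the source of endostatin, stood at 543 and 500 CPM in endothelial cells, against 1309 and 1180 CPM in perivascular cells (-1.30 ± 0.27, adjusted p = 0.0077). Among integrins, the laminin receptor chains Itga6 and Itgb4 were higher than in all 3 groups, at 305 and 328 CPM and at 81.1 and 59.8 CPM in endothelial cells. Itga1, a collagen receptor chain, stood at 144 and 145 CPM in endothelial cells, against 525 and 657 CPM in perivascular cells (-2.08 ± 0.20, adjusted p = 0.00015) and 16.8 and 15.1 CPM in mesenchymal cells (2.90 ± 0.21, adjusted p = 1.6e-05). Itgb5 was lower than in all 3, at 7.02 and 1.33 CPM in endothelial cells and at least 76.2 CPM in every other library.

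Genes that recruit leukocytes differed in both directions. Higher than in all 3 groups were 9 of 20, beside 5.77% of all genes, among them Selp, Sele, Icam1, Icam2 and Ackr1. Lower than in all 3 were 4, the chemokines Ccl2, Ccl7, Cxcl1 and Cxcl2, beside 2.89% of all genes. The adhesion molecule Vcam1 was lower than in mesenchymal cells. Selp, the selectin P of venules and platelets, stood at 544 and 285 CPM in endothelial cells with no UMI in perivascular cells, and was at least 511-fold higher against them. Sele, the cytokine-induced selectin E, stood at 150 and 156 CPM in endothelial cells and at most 1.65 CPM in any other library. Ackr1, an atypical chemokine receptor of venules, stood at 146 and 114 CPM in endothelial cells, against 2.82 and 1.65 CPM in perivascular cells (5.73 ± 0.35, adjusted p = 3.1e-05). In library 3, 69.8% of the Ackr1 UMIs came from 1 cell, and without it the level was 36.2 CPM. By contrast the monocyte attractant Ccl2 stood at 57.5 and 23.9 CPM in endothelial cells, against 1371 and 2240 CPM in perivascular cells, 363 and 464 CPM in mesenchymal cells and 403 and 566 CPM in leukocytes. The difference of Ccl2 passed the test against each group (-5.35 ± 0.41, -3.47 ± 0.39 and -3.66 ± 0.39, adjusted p = 6e-05, 0.00017 and 0.00012). Ccl7, a related attractant, was lower against each group too. Cxcl12, the ligand of Cxcr4, stood at 502 and 937 CPM in endothelial cells, against 424 and 289 CPM in perivascular cells (0.92 ± 0.28, adjusted p = 0.04), a call that DESeq2 did not make (adjusted p = 0.0821). Over the list, the medians were 0.60, 0.98 and 2.76 against perivascular cells, mesenchymal cells and leukocytes.

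Several secreted factors and genes of blood fluidity were higher in endothelial cells. Apln, a peptide of sprouting endothelium, stood at 54.3 and 73.1 CPM in endothelial cells with no UMI in perivascular cells or leukocytes, and its receptor Aplnr stood at 319 and 249 CPM in endothelial cells with at most 2.82 CPM in any other library. Pdgfb, which attracts pericytes, stood at 155 and 246 CPM in endothelial cells, against 27.3 and 10.7 CPM in perivascular cells (3.20 ± 0.40, adjusted p = 0.00065). Lrg1, an inducible modifier of TGF-β signalling, stood at 1007 and 873 CPM in endothelial cells, against 8.94 and 2.48 CPM in perivascular cells (7.22 ± 0.31, adjusted p = 1.7e-05). Inhbb, which codes for an activin subunit, and Ltbp4, which binds latent TGF-β, were higher than in all 3 groups, at 23.6 and 33.2 CPM and at 352 and 368 CPM in endothelial cells. Of 22 angiocrine genes 8 were higher than in all 3 groups, beside 5.77% of all genes. Their medians were 0.74 against perivascular cells and 0.07 against mesenchymal cells. Nos3, the endothelial nitric oxide synthase, stood at 100 and 94.4 CPM in endothelial cells, against 7.06 and 6.61 CPM in perivascular cells (3.78 ± 0.26, adjusted p = 4.2e-05). Procr, the receptor of activated protein C, ran the other way, at 95.8 and 75.8 CPM in endothelial cells, against 596 and 778 CPM in perivascular cells (-3.02 ± 0.41, adjusted p = 0.00094). Of 16 haemostasis genes, 4 were higher and 4 lower than in perivascular cells (median -0.27), beside 13.0% and 14.4% of all genes. Thbd, the anticoagulant thrombomodulin, had levels of 124 and 121 CPM in endothelial cells and 145 and 140 CPM in perivascular cells (-0.27 ± 0.16, adjusted p = 0.25).

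Genes linked to a shift from endothelial to mesenchymal state were mostly lower than in perivascular and mesenchymal cells, and mostly higher than in leukocytes. Of 15 measured, 2 were higher and 8 lower than in perivascular cells (median -2.46), beside 13.0% and 14.4% of all genes. Against mesenchymal cells 0 were higher and 10 lower (median -2.13), beside 17.9% and 23.5%. Against leukocytes 8 were higher and 3 lower (median 0.97), beside 20.6% and 23.5%. The shares higher than in perivascular cells and lower than in leukocytes were near those of all genes. At an unadjusted p under 0.05, 1 was higher in edgeR and 0 in DESeq2 against mesenchymal cells. Twist1, a mesenchymal transcription factor, stood at 6.38 and 1.33 CPM in endothelial cells, against 184 and 199 CPM in mesenchymal cells (-5.65 ± 0.32, adjusted p = 4.5e-06). Twist2, its close relative, had no UMI in endothelial cells and was at least 10.9-fold lower than in perivascular cells and at least 19.1-fold lower than in mesenchymal cells. Zeb2 stood at 17.2 and 5.32 CPM in endothelial cells, against 709 and 611 CPM in perivascular cells (-5.73 ± 0.33, adjusted p = 2.2e-05), and was lower against each group. Acta2, the smooth muscle actin, stood at 27.5 and 25.3 CPM in endothelial cells, against 7729 and 5568 CPM in perivascular cells (-8.01 ± 0.36, adjusted p = 1.7e-05). Fn1, the matrix protein fibronectin, stood at 253 and 93.1 CPM in endothelial cells, against 7119 and 5153 CPM in mesenchymal cells. Members were gated to low Col1a1 and Col1a2 and to an excess of endothelial over mural genes, so cells far along such a shift could not enter the group. Snai1, an inducer of the shift, had levels of 57.5 and 73.1 CPM in endothelial cells and 56.7 and 38.4 CPM in mesenchymal cells (0.15 ± 0.27, adjusted p = 0.71).

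The positional genes of the limb separated the endothelium from the mesenchyme. Hoxa11, whose locus drives the Cre, had no UMI in endothelial cells of either library, where 3 counts would be 1.92 and 3.99 CPM, against 13.2 and 8.26 CPM in perivascular cells and 25.1 and 29.6 CPM in mesenchymal cells. With the floor taken over both endothelial sums, Hoxa11 was at least 8.81-fold lower than in perivascular cells and at least 20.9-fold lower than in mesenchymal cells. Pitx1, a hindlimb factor, had no UMI either and was at least 22.9-fold lower than in mesenchymal cells. Shox2 stood at 1.28 and 0 CPM in endothelial cells, against 133 and 108 CPM in mesenchymal cells (-7.39 ± 0.39, adjusted p = 3.4e-06). Of 9 measured positional genes, 2 were higher and 5 lower than in perivascular cells, beside 13.0% and 14.4% of all genes. Their median was -3.57, or -3.14 with genes of 0 counts at their bound. Against mesenchymal cells 1 was higher and 7 lower (median -4.50, or -3.41), beside 17.9% and 23.5% of all genes. Hoxd9 was higher than in each group, at 33.8 and 43.9 CPM in endothelial cells, against 8.94 and 11.6 CPM in perivascular cells and 12.2 and 9.16 CPM in mesenchymal cells (1.88 ± 0.34, adjusted p = 0.0063, and 1.54 ± 0.27, adjusted p = 0.0034).

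Of 724 genes that were higher than in all 3 groups, the 15 with the largest smallest difference were Mmrn1, Hoxb8, Selp, Prnd, Disp2, Gm30191, D330037F02Rik, Sele, Lrat, Glycam1, AU021092, Syt15, Klhl4, Ccl21a and Aplnr. Hoxb8, a homeobox gene of the trunk, had 18.5 and 21.3 CPM in endothelial cells and no UMI in any other group, which put it at least 21.6-fold above perivascular cells, 179.9-fold above mesenchymal cells and 48.3-fold above leukocytes. Prnd, a relative of the prion protein, had 55.5 and 79.8 CPM with no UMI in perivascular cells or leukocytes. Disp2, Gm30191, D330037F02Rik and Lrat rested on 18 to 31 endothelial UMIs each. DESeq2 did not call these 4 genes, nor Mmrn1, Hoxb8, Prnd and Ccl21a, against perivascular cells (adjusted p from 0.093 to 0.406). It did not call Hoxb8, Prnd, Disp2, Gm30191 and D330037F02Rik against mesenchymal cells or leukocytes either, nor Mmrn1 against leukocytes (adjusted p = 0.0505). Hoxb8, Disp2, Gm30191 and D330037F02Rik had no UMI in any other group. They passed the filter on low counts only through their endothelial counts, so they could only come out higher. Ccl21a shares sequence with near-identical copies, so its counts are uncertain, and 90.7% of its endothelial UMIs in library 3 came from 1 cell.

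Of 20 cell division genes measured, 0 were higher and 3 lower than in perivascular cells, beside 13.0% and 14.4% of all genes, 2 were higher and 2 lower than in mesenchymal cells, beside 17.9% and 23.5%, and 1 was higher and 4 lower than in leukocytes, beside 20.6% and 23.5%. Their summed level was 603 and 812 CPM in endothelial cells and 1042 and 577 CPM in perivascular cells, so the libraries differed in order. The endothelial sum of library 3 leaned on 1 cell. That cell held 95.3% of the Ube2c, 88.5% of the Top2a, 32.4% of the Hmgb2 and 17.2% of the Pcna UMIs. Whether the order holds without that cell was not tested. At an unadjusted p under 0.05, edgeR and DESeq2 still found 0 higher than in perivascular cells. Mki67, a marker of cycling cells, stood at 51.7 and 37.2 CPM in endothelial cells, against 94.1 and 59.5 CPM in perivascular cells (-0.82 ± 0.23, adjusted p = 0.033), and without the deepest barcodes this call was lost (adjusted p = 0.0654). In library 3, 85.7% of the endothelial Mki67 UMIs came from 1 cell. Of 16 immediate-early genes that respond to tissue dissociation, 1 was higher and 8 lower than in perivascular cells (median -0.48), beside 13.0% and 14.4% of all genes. Nr4a1 stood at 206 and 138 CPM in endothelial cells and 594 and 572 CPM in perivascular cells. The part of dissociation in the differences above was not tested.

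Genes that mark single vessel types were present together in the endothelial sums. Higher than in all 3 other groups were 7 of 13 measured arterial genes, 7 of 14 venous genes, 10 of 14 capillary genes, 5 of 17 tip cell genes and 8 of 14 lymphatic genes, beside 5.77% of all genes. Among lymphatic genes, Prox1, the master regulator of lymphatic fate, stood at 81.1 and 50.5 CPM in endothelial cells, against 4.71 and 2.48 CPM in perivascular cells (4.10 ± 0.40, adjusted p = 0.00019). In library 3, 71.1% of the Prox1 UMIs came from 1 of its 3 lymphatic-marker cells, given below. Mmrn1, a lymphatic multimerin, stood at 200.3 and 91.7 CPM in endothelial cells with no UMI in perivascular cells or leukocytes, and was at least 183-fold higher than in perivascular cells. Of its UMIs in library 3, 60.9% came from 1 cell, and without it the level was 37.9 CPM.

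Within the endothelial cells, lymphatic cells stood apart. UMIs of Prox1, Lyve1, Pdpn, Mmrn1, Flt4 and Ccl21a left a gap in both libraries, between 9 and 24 UMIs per cell in library 1-2 and between 2 and 39 in library 3. At a limit of 3 UMIs, 16 cells of library 1-2 (17.6%) and 3 of library 3 (6.52%) passed. The 16 included the 3 doubtful members given above, with 3, 9 and 4 UMIs, and cells with 204 and 82 UMIs of Cd36 and Gpihbp1. They cannot all be called lymphatic. At a limit of 20 UMIs, set in the gap after the values were seen, 10 of 91 (Wilson interval 6.08 to 19.1%) and 3 of 46 (6.52%, 2.24 to 17.5%) passed. These are the lymphatic-marker cells. The remaining cells were divided after their values were seen, into 43 and 29 capillary-marker cells with at least 3 UMIs of Cd36 and Gpihbp1 and more of these than of Selp and Ackr1, 21 and 8 venule-marker cells with the opposite excess, and 17 and 6 other cells. The values below describe these subsets and carry no test. The single cell with most of the red blood cell transcripts was among the lymphatic-marker cells of library 1-2.

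**Figure D3:**
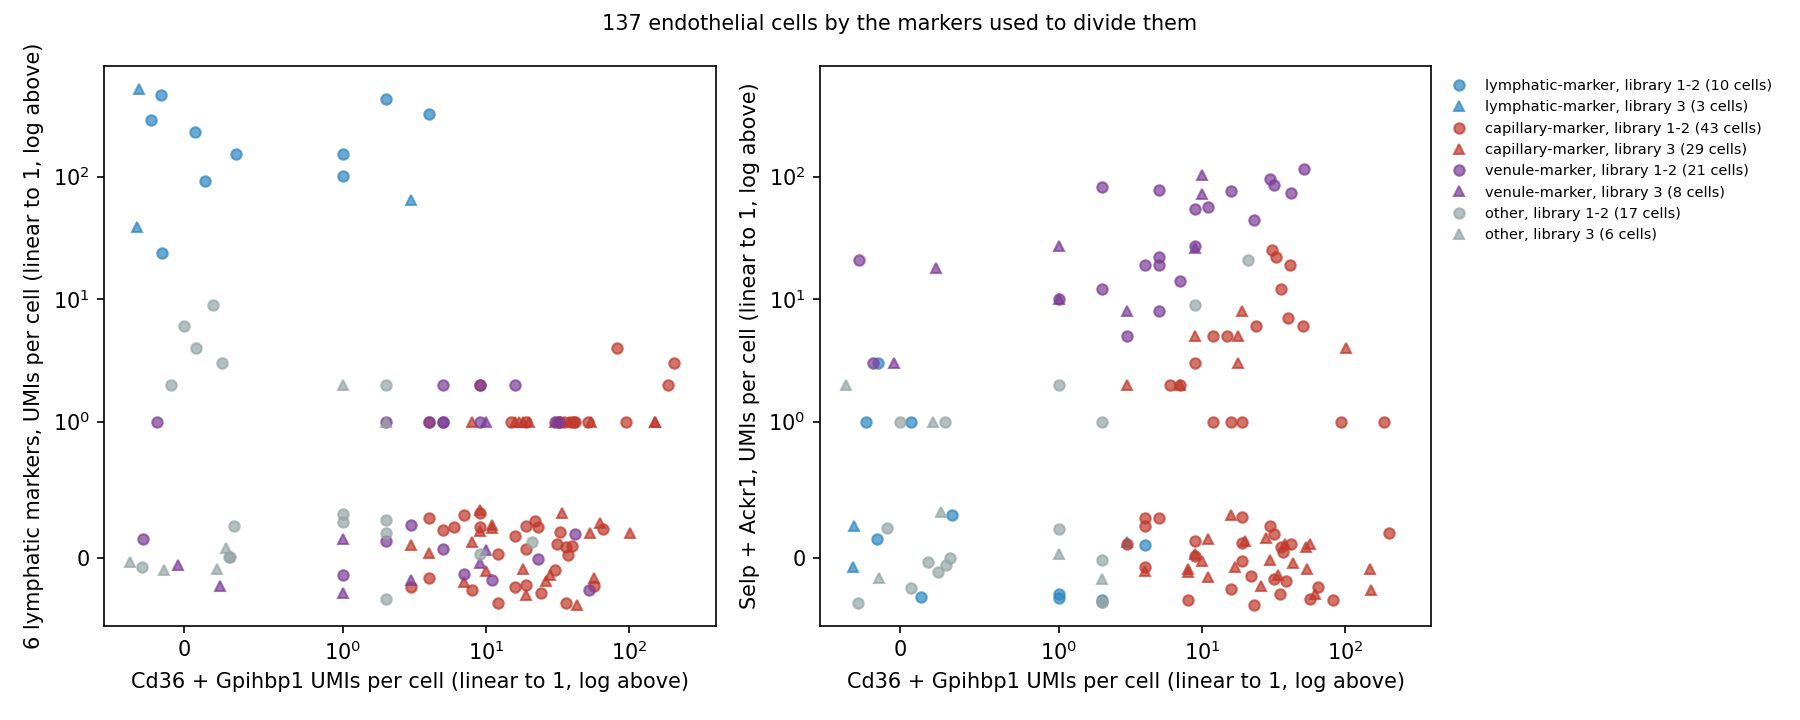
UMIs per cell of the 6 lymphatic markers (left) and of Selp and Ackr1 (right) against Cd36 and Gpihbp1 in 137 endothelial cells, with circles for library 1-2 and triangles for library 3. Axes are linear to 1 and logarithmic above, values of 0 are spread at random around 0 for visibility, and the 10 and 3 lymphatic-marker cells lie above the gap on the left.

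Genes outside the subset markers followed the division. In lymphatic-marker cells Reln, a secreted glycoprotein, stood at 413 and 390 CPM, against no UMI in the other 3 subsets. Nts, which codes for neurotensin, stood at 912 and 1155 CPM in lymphatic-marker cells, against 62.9 and 11.7 CPM in capillary-marker cells and 21.6 and 10.6 CPM in venule-marker cells. The polarity gene Pard6g stood at 320 and 602 CPM in lymphatic-marker cells and at most 4.32 CPM elsewhere. The 3 lymphatic-marker cells of library 3 held 61481 UMIs, of which 39047 were in 1 cell. In that library 1 cell held 75.6% of the endothelial Nts, 62.5% of the Reln and 62.2% of the Pard6g UMIs. Sox17, Vwf and Sele had no UMI in the lymphatic-marker cells of either library. Cldn5, a tight junction gene of the gate, was highest there, at 1864 and 2277 CPM in lymphatic-marker cells, against 484 and 811 CPM in capillary-marker cells and 99.3 and 190 CPM in venule-marker cells.

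Fabp4 and Tcf15, from the fatty acid list, were higher in capillary-marker cells than in venule-marker cells. Fabp4 stood at 11123 and 11171 CPM in capillary-marker cells, against 6027 and 3723 CPM in venule-marker cells and 46.6 and 0 CPM in lymphatic-marker cells. Tcf15, a transcription factor of fatty acid uptake in endothelium, stood at 132 and 157 CPM in capillary-marker cells, against 23.8 and 15.8 CPM in venule-marker cells. Cxcl12 stood at 921 and 1469 CPM in capillary-marker cells, against 56.1 and 58.1 CPM in venule-marker cells and 6.66 and 0 CPM in lymphatic-marker cells. In each of these genes both libraries kept the order.

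Sele, Vwf and Lrg1, and Icam1 and Il6st, which were chosen after their values were seen, stood higher in venule-marker cells than in capillary-marker cells, which held all of them too. Sele stood at 391 and 481 CPM in venule-marker cells, against 52.2 and 56.1 CPM in capillary-marker cells. Vwf stood at 618 and 919 CPM in venule-marker cells, against 193 and 101 CPM in capillary-marker cells. Icam1, the ligand of leukocyte integrins, stood at 767 and 1030 CPM in venule-marker cells, against 245 and 285 CPM in capillary-marker cells. Il6st, the shared receptor chain of the interleukin 6 family, stood at 1017 and 655 CPM in venule-marker cells, against 254 and 210 CPM in capillary-marker cells. Lrg1 stood at 1777 and 1817 CPM in venule-marker cells, against 731 and 593 CPM in capillary-marker cells. Plvap was spread over both, at 1805 and 1727 CPM in venule-marker cells and 1411 and 1474 CPM in capillary-marker cells. Edn1 in venule-marker cells of library 3 (718 CPM) came for 79% from 1 cell.

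**Figure D4:**
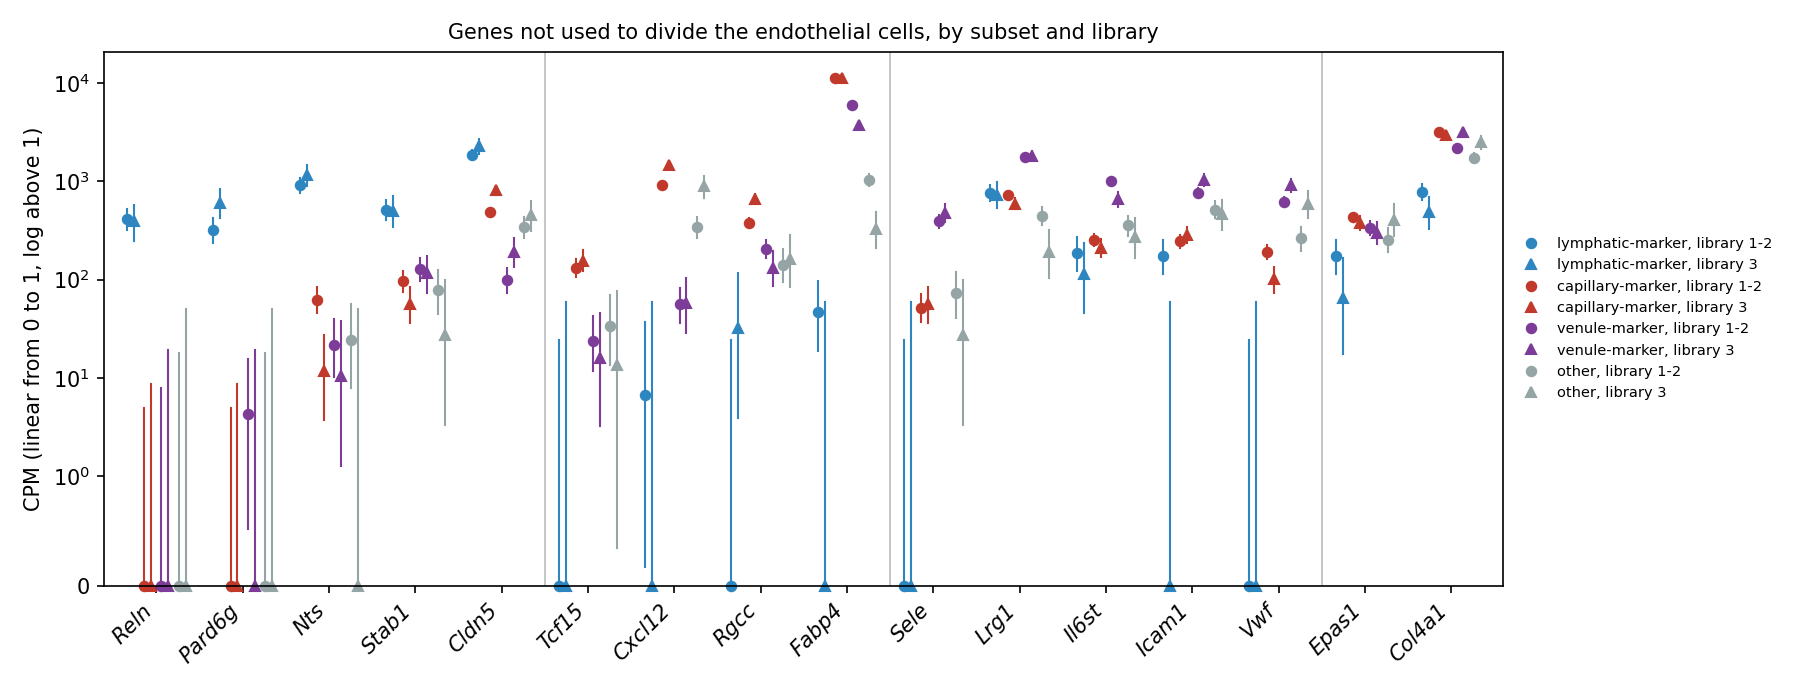
Levels in CPM (linear from 0 to 1, logarithmic above) of 16 genes that did not define the subsets, in lymphatic-marker, capillary-marker, venule-marker and other endothelial cells of library 1-2 (circles) and library 3 (triangles), with exact 95% Poisson intervals. Fabp4 reached 11123 and 11171 CPM in capillary-marker cells, and Reln had UMIs only in lymphatic-marker cells.

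The HIF genes were present in each vessel type, lowest in lymphatic-marker cells, of which library 3 held only 3. Epas1 stood at 431 and 378 CPM in capillary-marker cells, 337 and 301 CPM in venule-marker cells, and 173 and 65.1 CPM in lymphatic-marker cells. Hif1a stood at 233 and 339 CPM in capillary-marker cells, 445 and 380 CPM in venule-marker cells, and 113 and 211 CPM in lymphatic-marker cells. Col4a1 stood at 3191 and 2934 CPM in capillary-marker cells and 2205 and 3153 CPM in venule-marker cells, so the libraries differed in order, and at 785 and 488 CPM in lymphatic-marker cells.

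In the wild-type sections, endothelial transcripts were sparse. Sections A1 and B1 held 3555 and 3195 spots with medians of 454 and 516 UMIs, and the 4 gate genes gave 961 and 766 UMIs. Of these spots 2832 and 2628 had no UMI of the 4 genes, and 40 and 47 had at least 3. These marker spots were set against spots of the same section with no UMI of the 4 genes, matched on depth, with 51853 and 82790 UMIs in the sums of marker spots and 51842 and 82943 UMIs in the sums of matched spots. Of 1443 genes tested, 1.66% were higher and 5.27% lower in marker spots. In spots, more endothelial cells and more RNA per endothelial cell cannot be told apart.

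Vascular and basement membrane genes were among the 24 that were higher, and mural markers moved with them. Sox18 stood at 984 and 447 CPM in marker spots, against 347 and 96.4 CPM in matched spots (1.67 ± 0.34, adjusted p = 0.000123). Plvap stood at 501 and 1015 CPM in marker spots, against 386 and 229 CPM in matched spots (1.29 ± 0.32, adjusted p = 0.00237). Fabp4 stood at 1967 and 664 CPM in marker spots, against 714 and 350 CPM in matched spots (1.12 ± 0.28, adjusted p = 0.00191). Within each section the marker spots were above the matched spots for all 3 genes. Col4a1 stood at 656 and 544 CPM in marker spots, against 251 and 133 CPM in matched spots (1.61 ± 0.35, adjusted p = 0.000398), and Col4a2 at 3298 and 2404 CPM in marker spots, against 1640 and 1121 CPM in matched spots (0.96 ± 0.22, adjusted p = 0.000764). Of the mural markers, 2 of 5 measured were higher and 0 lower (median 0.89), beside 1.66% and 5.27% of all genes. Pdgfrb, a receptor of pericytes and other mesenchyme, stood at 945 and 713 CPM in marker spots, against 694 and 229 CPM in matched spots (0.89 ± 0.30, adjusted p = 0.043), Rgs5 at 1659 and 507 CPM in marker spots, against 907 and 193 CPM in matched spots, and the part of mural cells in the differences was not tested. Beside 5.27% of all genes, 3 of 4 keratinocyte genes and 2 of 2 skeletal muscle genes were lower in marker spots. So were 5 of 8 dissociation genes, 3 of 6 glycolysis genes and 2 of 10 HIF genes. Of 7 BMP and TGF-β genes and 10 mesenchymal transition genes measured, 0 were higher and 0 lower. Of 2 leukocyte markers measured, S100a8 was lower and Csf1r did not pass (1.41 ± 0.60, adjusted p = 0.188), while Cd74, the invariant chain of MHC class II, was higher, at 1099 and 870 CPM in marker spots, against 675 and 265 CPM in matched spots (1.08 ± 0.29, adjusted p = 0.00522). The keratin Krt14 stood at 4783 and 9119 CPM in marker spots, against 9027 and 27609 CPM in matched spots (-1.37 ± 0.17). The neutrophil gene S100a9, chosen after its values were seen, stood at 77.1 and 242 CPM in marker spots, against 714 and 1097 CPM in matched spots. Lox had levels of 1215 and 2235 CPM in marker spots and 1775 and 1965 CPM in matched spots, and the difference did not pass the test (-0.24 ± 0.23, adjusted p = 0.764). With size factors by the median of ratios, without the section block or with a limit of 4 UMIs per spot, edgeR called 0 genes, and DESeq2 called 0 higher and 10 lower, so the calls named here for the spots depend on the model.

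**Figure D5:**
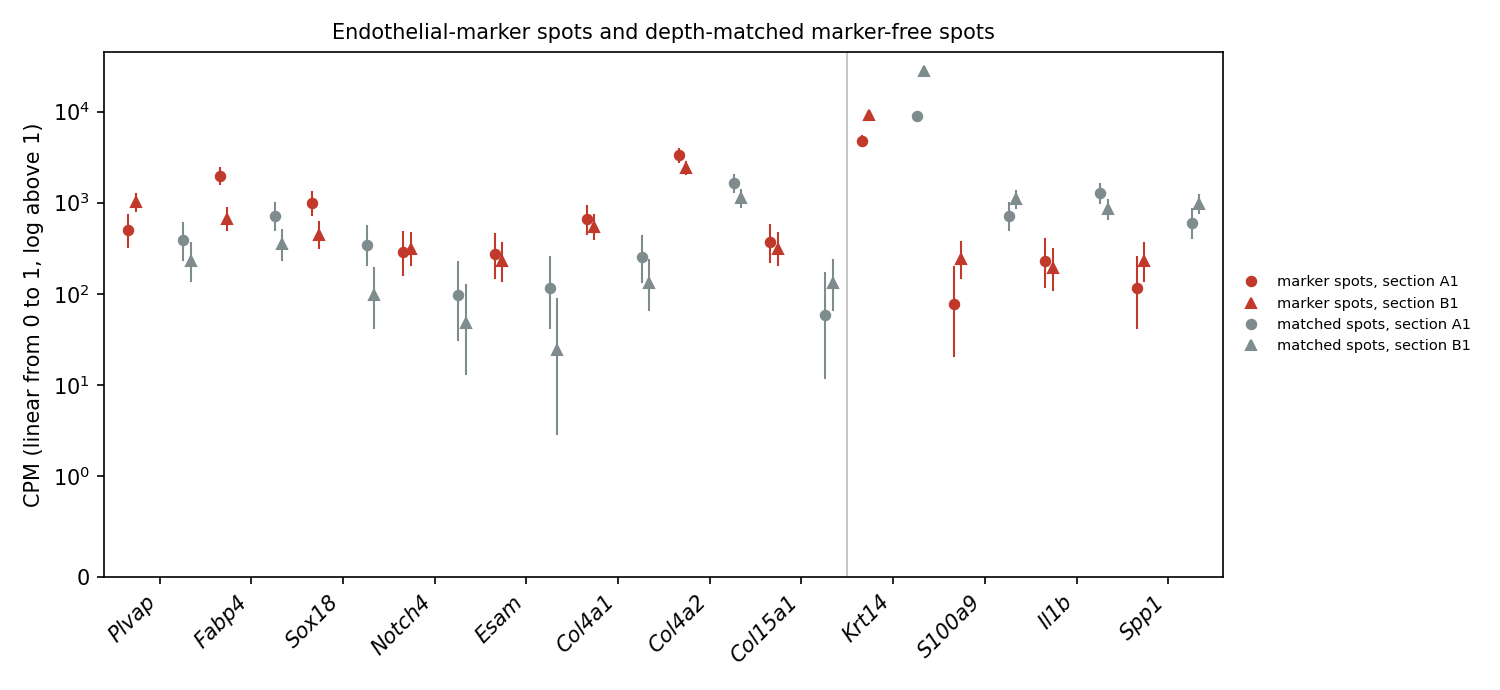
Levels in CPM (linear from 0 to 1, logarithmic above) in endothelial-marker spots and depth-matched marker-free spots of section A1 (circles) and section B1 (triangles), with exact 95% Poisson intervals. Sox18 had 984 and 447 CPM in marker spots and 347 and 96.4 CPM in matched spots, and the genes right of the line were lower in marker spots in both sections.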

How the data were processed

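Unnormalised UMI counts of each gene in each barcode, as deposited for the 2 scRNA-seq libraries, came from Cell Ranger 5.0.1 (mm10), and those of the 2 Visium sections, which list probe-targeted genes by spot, from Space Ranger 2.0.1. The authors applied no depth scaling to these counts. Cells were gated by marker counts, and counts were summed per library and cell group. edgeR 4.0.16 in R 4.3.3 was run with TMM scaling, filterByExpr, and library or section as a block, because sums of 1 library come from the same mice. The genes of the gates got no test. UMIs are not corrected for free RNA, which can add transcripts of one cell type to another. Scrublet was run in scanpy 1.11.5 with an expected rate of 0.02. The fit was tested on simulated data. CPM are counts per 1000000 UMIs of a sum.

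The members, gene lists and alternatives were chosen with earlier results of these data known. Named genes were up to 6 of each list and comparison with the largest log2 fold change among those called and with the same direction in both libraries, all members of lists under 10 genes, the 15 genes described as leading, and Hif1a, Epas1, Plod2, Lox, Hoxa11 and Plvap. Pard6g, Il6st, Icam1, S100a9, Esam, Il1b and Spp1 were chosen after their values were seen, as were the subset limits. Gene-wise deposited statistics of the sections were not used. Alternatives were DESeq2 1.42.0, median-of-ratios scaling, no filter, no block, other gates and leaving out each library.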

Additional observations from a re-analysis of the deposited data

How the results depend on the processing

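The counts of genes called in the 3 comparisons of cells stayed within 1.5 times of those given under each alternative run. Without the replicate block, 1686 genes were higher and 1878 lower than in perivascular cells, and of the calls given in the text for cells only that of Slc2a3 against mesenchymal cells was lost (-1.66, adjusted p = 0.145). Slc2a3 was also lost against mesenchymal cells with DESeq2 (-1.68, adjusted p = 0.109), median-of-ratios size factors (-1.71, adjusted p = 0.0507) and a gate of 10 UMIs (-1.66, adjusted p = 0.0508). DESeq2 did not make 12, 6 and 6 of the edgeR calls against perivascular cells, mesenchymal cells and leukocytes among the named genes, most of them genes with 0 counts in the other group. Leaving out 1 library leaves no replicate and so no test. Of 107 named genes, those called in the main fit whose value moved by more than 1 SE were counted (without library 1-2 and without library 3). They numbered 60 and 57 against perivascular cells, 77 and 68 against mesenchymal cells and 67 and 71 against leukocytes. Genes not called were counted as unmoved. The single-library values were log2 ratios with a small added count, unlike the fitted values, and its part in the moves was not tested. Most named genes were chosen for a direction that both libraries shared, so their signs say nothing about stability. Without the filter on low counts, the median of all genes against mesenchymal cells moved to -0.26, from -0.10.

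In the sections the calls depended on the setting. The counts of genes higher and lower in marker spots were 0 and 10 with DESeq2, 0 and 0 with median-of-ratios size factors, 11 and 39 without a filter, 0 and 0 with no replicate block, 31 and 137 with a limit of 2 UMIs, and 0 and 0 with a limit of 4 UMIs. At an unadjusted p under 0.05, 12 and 50 passed with DESeq2, 62 and 114 with median-of-ratios size factors, 37 and 80 without the block, and 8 and 16 with a limit of 4 UMIs. The cause was not tested. With 46 to 91 members a library, levels under 3.99 CPM in library 3 were under the floor of 3 counts.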

Other observations

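Interferon-response genes were in part higher in endothelial cells than in mesenchymal and perivascular cells. Of 15 measured, 8 were higher and 0 lower than in mesenchymal cells (median 1.88), beside 17.9% and 23.5% of all genes. Against perivascular cells 5 were higher and 1 lower (median 0.26), beside 13.0% and 14.4%. Against leukocytes 3 were higher and 5 lower (median 0.02), beside 20.6% and 23.5%, so the share higher was near that of all genes. Ly6e stood at 829 and 981 CPM in endothelial cells, against 172 and 201 CPM in mesenchymal cells and 845 and 655 CPM in leukocytes. Bst2, which tethers virus particles, stood at 353 and 310 CPM in endothelial cells and was higher than in each other group. MHC class II genes were lower than in leukocytes in 7 of 7 cases, beside 23.5% of all genes. Cd74 stood at 30.6 and 3.99 CPM in endothelial cells, against 6191 and 6814 CPM in leukocytes.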
